A study of Rattus norvegicus with 6 samples.

Results

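The mRNA of type 2a receptor tyrosine phosphatases (RPTPs), and of the adhesion proteins that bind them across the synapse, was measured in cultured rat retinal ganglion cell neurons (RGCs). The members were chosen by gene symbol. They are the RPTP genes Ptprd, Ptprs and Ptprf, and the genes of the trans-synaptic ligands Lrrc4b, Slitrk1, Slitrk2, Slitrk3, Il1rap and Il1rapl1. Every probe set that the platform annotation gives to 1 of these 9 symbols alone was taken, which gave 18 of the 31042 probe sets on the array. Each probe set combines several short probes against mRNA, and many genes have more than 1 probe set. Of the 9 genes 7 had a probe set. These were Ptprs with 4, Ptprd, Lrrc4b and Slitrk1 with 3 each, Ptprf and Il1rap with 2 each, and Slitrk3 with 1. Slitrk2 and Il1rapl1 were not measured.

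Type 2a RPTPs are single-pass membrane proteins that carry immunoglobulin and fibronectin domains outside the cell and a pair of phosphatase domains inside it. At synapses they sit mainly in the axon terminal, where they bind postsynaptic adhesion proteins and, through a basic surface of the first immunoglobulin domain, the sugar chains of heparan sulfate and chondroitin sulfate proteoglycans. Glypican 4 (Gpc4) is a heparan sulfate proteoglycan that astrocytes release and that promotes active glutamatergic synapses. Thrombospondin 1 (TSP1) promotes synapses that lack AMPA receptors and acts through another neuronal receptor. The paper reports that a peptide blocking RPTPδ and a peptide blocking RPTPσ each prevented the synapses formed with Gpc4. It also reports that extra RPTPδ in axons enhanced synapse formation with Gpc4. With TSP1, it reports fewer synapses with the RPTPσ peptide and no effect of the RPTPδ peptide. The comparison asks whether 12 hr with Gpc4 or TSP1 altered the mRNA of this receptor group or of its ligands.

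The study comprised 3 groups with 2 Affymetrix whole-genome rat expression arrays each. The Gpc4 group received soluble Gpc4 protein for 12 hr, the TSP1 group received TSP1 for 12 hr, and the Untreated group received no protein. All groups were RGCs of postnatal day 6 rats, kept for 12 days in growth medium with the survival factors BDNF and CNTF before treatment. The methods describe RGCs purified by immunopanning from pups of both sexes, 2 wells pooled for each condition, a repeat on 2 separate cultures, and His-tagged Gpc4 purified from the medium of transfected HEK293 cells, a human embryonic kidney line. The control is thus medium alone, and no group given protein from mock-transfected cells was among these arrays.

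Signal is given as the deposited log2 RMA value, and the median of an array lay between 5.96 and 5.99. No detection call was used, so for a value near or below these medians signal over background was not established, and such a value can understate a difference in mRNA. Of the 18 member probe sets 11 averaged at least 6 over the 6 arrays, against 49.7% of all probe sets. All 9 measured RGC markers averaged at least 6, between 7.88 and 13.97. Of markers of other cells, 1 of 6 for astrocytes and Müller glia, 1 of 5 for microglia, 4 of 5 for fibroblasts, 1 of 4 for endothelial cells, 1 of 3 for oligodendrocytes, 2 of 4 for amacrine cells and 0 of 3 for photoreceptors and bipolar cells reached that value. The summed linear signal of the 4 endothelial markers was 279 and 301 with Gpc4, 156 and 157 with TSP1, and 162 and 207 in Untreated. Most of that sum was Kdr, a receptor of vascular endothelial growth factor, at log2 values of at least 7.86 on the Gpc4 arrays, 6.77 and 6.83 with TSP1, and 6.84 and 7.36 in Untreated. The other endothelial markers, Cldn5, Tek and Pecam1, stayed below the array medians and were not all higher with Gpc4. The summed signal of the 5 fibroblast markers was 383 and 612 with Gpc4, 245 and 463 with TSP1, and 298 and 791 in Untreated. The part of these markers in the results was not tested. In RNA from whole wells, fewer cells of a type and less RNA per cell cannot be told apart.

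No member passed the test in any comparison. The two-sided test was limma's moderated linear model, which borrows the error estimate from all probe sets, on the 6 arrays, with Benjamini-Hochberg adjustment over all 31042 probe sets and a threshold of 0.05. With Gpc4 against Untreated, 0 of 18 member probe sets passed, beside 26 of all probe sets (0.0838%). With TSP1 against Untreated 0 of 18 passed beside 0 of all (0%), and with Gpc4 against TSP1 0 of 18 beside 19 of all (0.0612%). The replicate number was taken to stand for the culture, which the labels do not state. With it as a block, the counts over all probe sets were 64 (0.206%), 4 (0.0129%) and 80 (0.258%), and those over the members were again 0. At such low shares a count of 0 among 18 is near the background and is no result about the members. At an unadjusted p under 0.05 the member counts were 2 with Gpc4, 1 with TSP1 and 0 for Gpc4 against TSP1, beside 6.88%, 4.40% and 4.51% of all probe sets.

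The intervals show how large a change the arrays leave possible. The 95% confidence intervals of limma, taken for each probe set alone, ran over the 18 members between 0.647-fold and 1.23-fold for Gpc4 against Untreated, between 0.654-fold and 1.36-fold for TSP1 against Untreated, and between 0.696-fold and 1.51-fold for Gpc4 against TSP1. In each comparison all 18 lay within a 2-fold difference either way, and 17 of 18 within 1.5-fold. For the 7 RPTP probe sets that averaged at least 6, the bounds were 0.647-fold and 1.09-fold with Gpc4, 0.705-fold and 1.22-fold with TSP1. With 2 arrays a group, a member would have needed a difference of 1.63-fold (Slitrk1, 1391019_at) to 2.64-fold (Lrrc4b, 1375149_at) to pass with Gpc4, given the calls made among all probe sets.

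**Figure D1:**
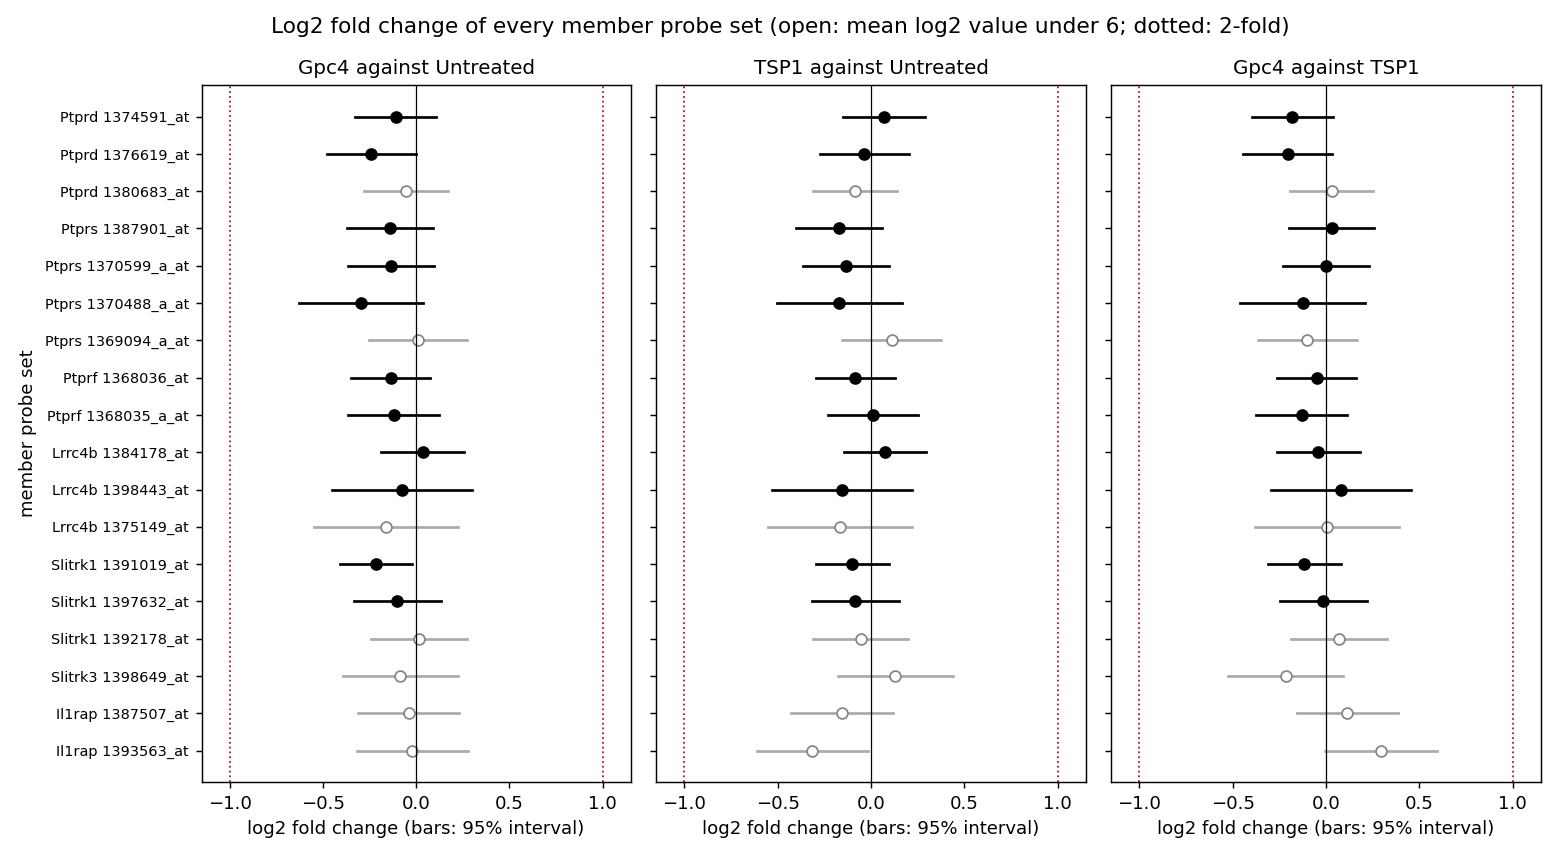
Log2 fold change of each of the 18 member probe sets in 3 comparisons, Gpc4 against Untreated, TSP1 against Untreated and Gpc4 against TSP1. Points are limma estimates and bars their 95% intervals (2 arrays per group), open grey points are probe sets that averaged under 6, and dotted lines mark a 2-fold difference, which no interval reaches.

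Ptprd encodes RPTPδ, a receptor of several of the ligands measured here. Its probe set 1374591_at had log2 values of 9.05 and 9.00 with Gpc4, 9.20 and 9.21 with TSP1, and 9.05 and 9.22 in Untreated. The Gpc4 arrays lay below the TSP1 arrays, while 1 Untreated array matched the higher Gpc4 array. Its log2 fold change was -0.11 with Gpc4 (standard error 0.094, limma adjusted p = 0.863), 0.07 with TSP1 (adjusted p = 0.987) and -0.18 for Gpc4 against TSP1 (adjusted p = 0.995). A further probe set of the gene, 1376619_at, had 8.62 and 8.45 with Gpc4, 8.82 and 8.66 with TSP1, and 8.79 and 8.76 in Untreated. Here both Gpc4 arrays were below all 4 others. In 1376619_at the log2 fold change was -0.24 with Gpc4 (standard error 0.102), with -0.17 in replicate 1 and -0.31 in replicate 2, and its limma adjusted p was 0.724, or 0.472 with the replicate block. For Gpc4 against TSP1 it was -0.205, with -0.20 and -0.21 in the replicates. Both bright Ptprd probe sets were therefore lower with Gpc4 than with TSP1 in each replicate, by amounts that did not pass (adjusted p = 0.995 for each, limma). The third, 1380683_at, ranged between 4.31 and 4.50 over the 6 arrays, below the array medians.

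Ptprs encodes RPTPσ, a receptor of chondroitin sulfate and heparan sulfate proteoglycans in axon growth. Its probe set 1387901_at had log2 values of 11.60 and 11.44 with Gpc4, 11.44 and 11.54 with TSP1, and 11.71 and 11.61 in Untreated. All 4 treated arrays were below both Untreated arrays, the nearest by 0.01 on the log2 scale. This gave a log2 fold change of -0.14 with Gpc4 (standard error 0.0987, limma adjusted p = 0.831) and -0.17 with TSP1 (adjusted p = 0.985), and 0.03 between the treatments. The probe set 1370599_a_at had 9.20 and 8.99 with Gpc4, 9.09 and 9.10 with TSP1, and 9.22 and 9.24 in Untreated. Its log2 fold change was -0.135 with each protein, and 0 for Gpc4 against TSP1 with a 95% interval of 0.853-fold to 1.17-fold. The dimmer 1370488_a_at had 6.27 and 5.84 with Gpc4, 6.14 and 6.22 with TSP1, and 6.28 and 6.42 in Untreated. Replicate 2 set its value. The log2 difference between Gpc4 and Untreated was -0.01 in replicate 1 and -0.58 in replicate 2, with a mean of -0.295 (standard error 0.144, limma adjusted p = 0.752), and without the array Gpc4 replicate 2 the difference was -0.08. The fourth, 1369094_a_at, lay between 4.03 and 4.32 on all arrays. The 3 brighter Ptprs probe sets were thus below Untreated with both proteins in every array, and these comparisons share the same 2 Untreated arrays. Of these, 1370488_a_at lay near the array medians, where signal over background was not established.

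Ptprf encodes LAR, the founding member of the family. Its probe set 1368036_at had log2 values of 10.10 and 10.07 with Gpc4, 10.06 and 10.21 with TSP1, and 10.22 on both Untreated arrays. The treated arrays were all lower, one of the TSP1 arrays by 0.01. For this probe set the log2 fold change was -0.135 with Gpc4 (standard error 0.0911, limma adjusted p = 0.820) and -0.085 with TSP1 (adjusted p = 0.985). The probe set 1368035_a_at had 9.93 and 9.94 with Gpc4, 10.08 and 10.05 with TSP1, and 10.18 and 9.93 in Untreated. In it the spread between the Untreated arrays, 0.25, was wider than the difference of -0.12 with Gpc4 (limma adjusted p = 0.866).

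**Figure D2:**
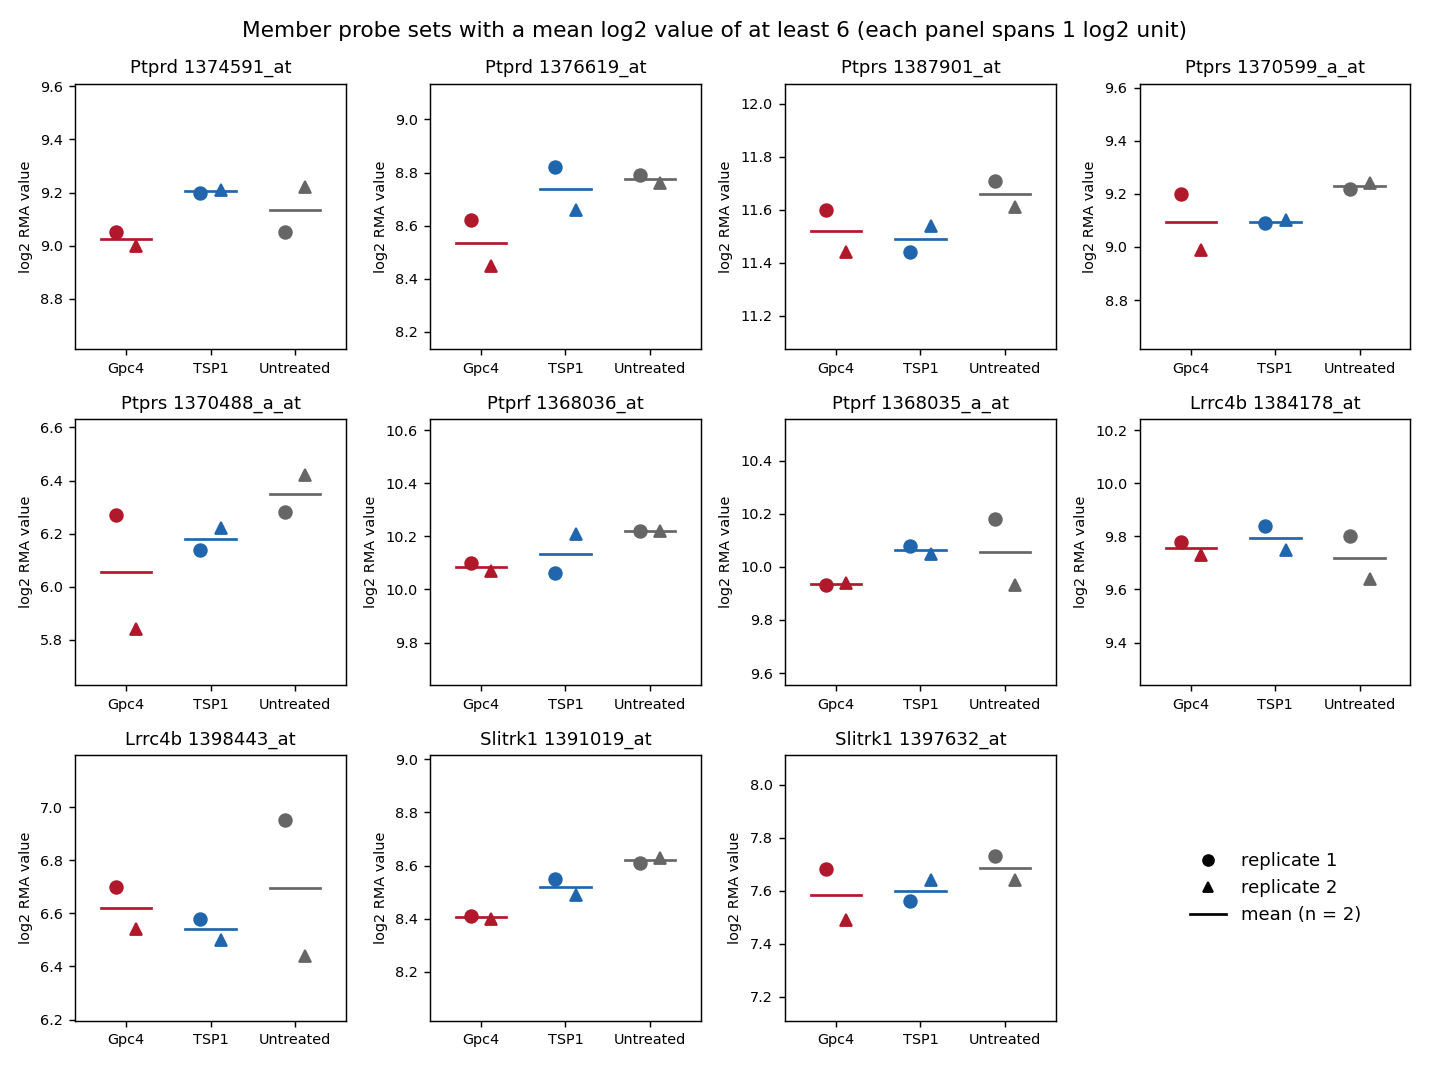
Log2 RMA values on each array for the 11 member probe sets with a mean of at least 6, in Gpc4, TSP1 and Untreated. Circles are replicate 1, triangles replicate 2, lines group means (n = 2), and every panel spans 1 log2 unit. The Gpc4 points of Slitrk1 1391019_at (8.41 and 8.40) lie below its Untreated points (8.61 and 8.63), and the Gpc4 points of Ptprs 1370488_a_at are 0.43 apart.

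Among the ligands, Lrrc4b encodes NGL-3, a postsynaptic leucine-rich repeat protein that binds LAR and related RPTPs. Its probe set 1384178_at had log2 values of 9.78 and 9.73 with Gpc4, 9.84 and 9.75 with TSP1, and 9.80 and 9.64 in Untreated. The groups overlapped. The log2 fold change was 0.035 with Gpc4 (standard error 0.0956, limma adjusted p = 0.973, 95% interval 0.878-fold to 1.20-fold) and 0.075 with TSP1 (adjusted p = 0.986). Both further probe sets had more spread than difference. In 1398443_at the Untreated arrays stood at 6.95 and 6.44, with both Gpc4 arrays (6.70 and 6.54) and both TSP1 arrays (6.58 and 6.50) between them. In 1375149_at the TSP1 arrays stood at 5.62 and 6.06, which enclosed the Gpc4 values of 6.02 and 5.67 and the Untreated values of 6.03 and 5.98.

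Slitrk1 to Slitrk3 belong to the Slitrk family of postsynaptic leucine-rich repeat proteins, whose members bind RPTPδ or RPTPσ. The Slitrk1 probe set 1391019_at had log2 values of 8.41 and 8.40 with Gpc4, 8.55 and 8.49 with TSP1, and 8.61 and 8.63 in Untreated. The groups did not overlap, with Gpc4 lowest and TSP1 between. The log2 fold change with Gpc4 was -0.215 (standard error 0.0839), with -0.20 and -0.23 in the replicates. It had the smallest p of the members in this comparison and ranked 1519 of all probe sets by p, and it did not pass (limma adjusted p = 0.710, or 0.503 with the replicate block). With TSP1 it was -0.10 (adjusted p = 0.985) and for Gpc4 against TSP1 -0.115 (adjusted p = 0.995, limma). The probe set 1397632_at, by contrast, had 7.68 and 7.49 with Gpc4, 7.56 and 7.64 with TSP1, and 7.73 and 7.64 in Untreated, which overlapped, and its log2 fold change with Gpc4 was -0.10. The third Slitrk1 probe set, 1392178_at, ranged between 4.19 and 4.47. Slitrk3, which binds RPTPδ at inhibitory synapses, had 5.88 and 5.58 with Gpc4, 5.97 and 5.92 with TSP1, and 5.95 and 5.68 in Untreated. Only 1 of these 6 values was above the median of its own array, so the signal was not shown to exceed background.

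Il1rap encodes the interleukin-1 receptor accessory protein, a subunit of the interleukin-1 receptor whose neuronal form binds RPTPδ. Both of its probe sets were dim on all arrays. The probe set 1387507_at had log2 values of 4.32 and 4.15 with Gpc4, 3.99 and 4.25 with TSP1, and 4.32 and 4.23 in Untreated. The probe set 1393563_at had 4.09 and 4.28 with Gpc4, 3.78 and 4.00 with TSP1, and 4.33 and 4.08 in Untreated. In 1393563_at both TSP1 arrays were below the other 4. Its log2 difference was -0.315 with TSP1 (standard error 0.128, limma adjusted p = 0.985) and 0.295 for Gpc4 against TSP1 (adjusted p = 0.995), at a signal far under the array medians.

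The signs of the differences leaned to one side in the comparisons with Untreated. The log2 fold change was below 0 in 15 of 18 member probe sets with Gpc4 (50.4% of all probe sets) and in 13 of 18 with TSP1 (50.6% of all), against 10 of 18 for Gpc4 against TSP1 (50.1% of all). Probe sets of 1 gene measure mRNA of the same gene, and both comparisons with Untreated share the same Untreated arrays. The counts therefore stand for fewer independent values than 18. The median log2 fold change of the members was -0.105 with Gpc4 and -0.085 with TSP1, and -0.005 over all probe sets in both. By role, the 9 RPTP probe sets had a median of -0.135 with Gpc4 and -0.085 with TSP1, and the 9 ligand probe sets -0.075 and -0.10. At 1 probe set per gene, the brightest, the medians of the 7 genes were -0.11 and -0.085, and Lrrc4b was the 1 gene above 0 with Gpc4. For Gpc4 against TSP1 the median of the members was -0.0275.

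**Figure D3:**
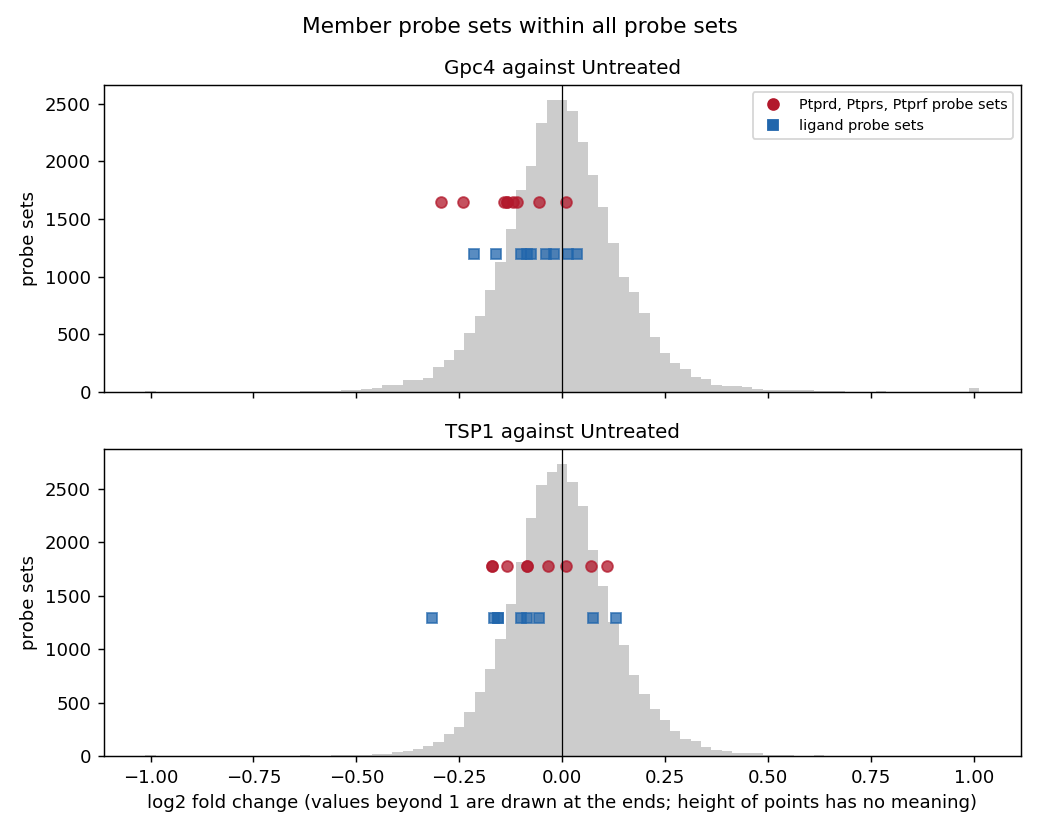
Histogram of the log2 fold changes of all 31042 probe sets (grey; number of probe sets on the vertical axis) for Gpc4 against Untreated (top) and TSP1 against Untreated (bottom), with the RPTP probe sets (red circles) and ligand probe sets (blue squares) marked at their values. The height of the points has no meaning. The member values lie between -0.295 and 0.035 with Gpc4 and between -0.315 and 0.13 with TSP1, within the bulk of all probe sets.

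With Gpc4 the 2 arrays were both below the 2 Untreated arrays in 6 of 18 member probe sets, against 18.9% of all probe sets, and both above in 0 of 18, against 16.0% of all. Those 6 were 1 of Ptprd, 3 of Ptprs, 1 of Ptprf and 1 of Slitrk1. With TSP1 the count was also 6 lower (15.6% of all) and 0 higher (14.3% of all), which were 3 of Ptprs, 1 of Ptprf, 1 of Slitrk1 and 1 of Il1rap. Both counts rest on the same Untreated arrays. Between Gpc4 and TSP1 there were 6 lower (15.5% of all) and 2 higher (14.6% of all).

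Over the members, the median absolute log2 fold change between groups was 0.105 with Gpc4 and 0.105 with TSP1, each against Untreated. These are differences between means of 2 arrays, which vary less than differences between single arrays. They are therefore not directly comparable with the differences within a group. The median absolute difference between the 2 arrays of a group was 0.16 over the members with Gpc4 (0.10 over all probe sets), 0.08 with TSP1 (0.11 over all) and 0.15 in Untreated (0.11 over all). Replicate 2 against replicate 1, fitted with the group, gave 0 of 18 members past the threshold beside 0.561% of all probe sets. The members with the smallest p there were Lrrc4b 1398443_at, with a log2 difference of -0.25 (limma adjusted p = 0.397), and Slitrk3, with -0.21 (limma adjusted p = 0.399). Both were lower in replicate 2 in all 3 groups.

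Probe sets of the same gene did not always move together over the 6 arrays. Among the 3 brighter Ptprs probe sets Pearson's r was 0.87 between 1387901_at and 1370599_a_at, 0.94 between 1370599_a_at and 1370488_a_at, and 0.73 between 1387901_at and 1370488_a_at. The bright pair of Ptprd had r of 0.61, that of Lrrc4b 0.58, that of Slitrk1 0.44 and that of Ptprf 0.30. These 6 arrays hold 3 treatments and 2 cultures, so the values are a description. Of the brighter members Ptprs 1370488_a_at had the widest span of group means, 0.295 on the log2 scale. Among 12120 probe sets of other genes with a mean of at least 6, the patterns most like it over the 6 arrays were those of Med24 (r = 0.998), a Mediator subunit, Cmtr1 (r = 0.997), an mRNA cap methyltransferase, and Rere (r = 0.993), a transcriptional corepressor. As in Ptprs, the lowest value of each was on the array Gpc4 replicate 2, at 8.88 for Med24, 10.23 for Cmtr1 and 9.85 for Rere. This follows from the choice, since they were picked from 12120 for likeness to a pattern that is lowest on that array. Over 6 arrays such r values are a description and no result about these genes.

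Other genes of the pathway were taken from 3 lists, with the brightest probe set for each gene, and the lowest and highest are named among genes that averaged at least 6. In each list and comparison 0 genes passed, also with the replicate block. Of all probe sets 0.0838% passed with Gpc4, 0% with TSP1 and 0.0612% for Gpc4 against TSP1. With the block these shares were 0.206%, 0.0129% and 0.258%. At such shares a count of 0 is near the background and is no result about the lists. The first list held 18 further genes, of which 13 were measured. They encode ligands and binding partners of RPTPs and related proteins such as netrins and netrin-G ligands, not all of which bind RPTPs. Their median log2 fold change was -0.095 with Gpc4 and -0.075 with TSP1. The lowest was Ntrk3, which encodes TrkC, a neurotrophin receptor that also binds RPTPσ. It had log2 values of 6.74 and 6.42 with Gpc4, 6.69 and 6.50 with TSP1, and 6.82 and 6.95 in Untreated, with a log2 fold change of -0.305 with Gpc4 (standard error 0.13, limma adjusted p = 0.724) and -0.29 with TSP1 (adjusted p = 0.985). All 4 treated arrays were below the Untreated ones. The highest with Gpc4 was the mRNA of Gpc4 itself, at 6.15 and 6.58 with Gpc4, 5.72 and 6.10 with TSP1, and 5.67 and 6.52 in Untreated. Its log2 fold change of 0.27 was smaller than the gap between the Untreated arrays (adjusted p = 0.891, limma). In each group the array with the higher Gpc4 value was also the one with the higher summed fibroblast signal given above. These arrays all had the same replicate number, which was taken to stand for the culture. The match therefore cannot be told apart from a difference between the replicates. Which cells the mRNA came from was not tested. The highest with TSP1 was Lrrc4c, which encodes the netrin-G1 ligand NGL-1, at 0.165.

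The second list held 20 intracellular partners and substrates, of which 19 were measured. Their medians were -0.01 with Gpc4 and 0.02 with TSP1, close to that of all probe sets. Abl1, a cytoplasmic tyrosine kinase, was lowest with Gpc4, at 7.76 and 7.68 with Gpc4, 7.68 and 7.99 with TSP1, and 8.06 and 7.97 in Untreated (log2 fold change -0.295, standard error 0.118, limma adjusted p = 0.724). Trio, a guanine nucleotide exchange factor that binds LAR, was highest with TSP1, at 10.25 and 10.14 with Gpc4, 10.55 and 10.31 with TSP1, and 10.15 and 10.25 in Untreated (log2 fold change 0.23, adjusted p = 0.985, limma). The scaffold Cask was highest with Gpc4 at 0.13, and Ppfia4, of the liprin-α family that binds the LAR phosphatase domain, was lowest with TSP1 at -0.21.

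The third list held 17 other receptor type phosphatases, of which 15 were measured, with medians of 0 with Gpc4 and 0.01 with TSP1. Ptprr, a phosphatase of MAP kinases, was lowest with Gpc4. Its log2 values were 8.74 and 8.61 with Gpc4, 9.19 and 9.07 with TSP1, and 9.10 and 9.18 in Untreated, so that both Gpc4 arrays were below the other 4. Its log2 fold change was -0.465 against Untreated (standard error 0.0961, limma adjusted p = 0.334, or 0.197 with the replicate block) and -0.455 against TSP1 (limma adjusted p = 0.441). Ptprj, a receptor phosphatase with fibronectin repeats, was highest with both proteins, at 8.07 and 8.03 with Gpc4, 8.21 and 8.17 with TSP1, and 7.72 and 7.93 in Untreated. Its log2 fold change was 0.225 with Gpc4 (limma adjusted p = 0.733) and 0.365 with TSP1 (limma adjusted p = 0.985). Ptprn, a phosphatase-like protein of secretory granules, was lowest with TSP1, at -0.17.

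**Figure D4:**
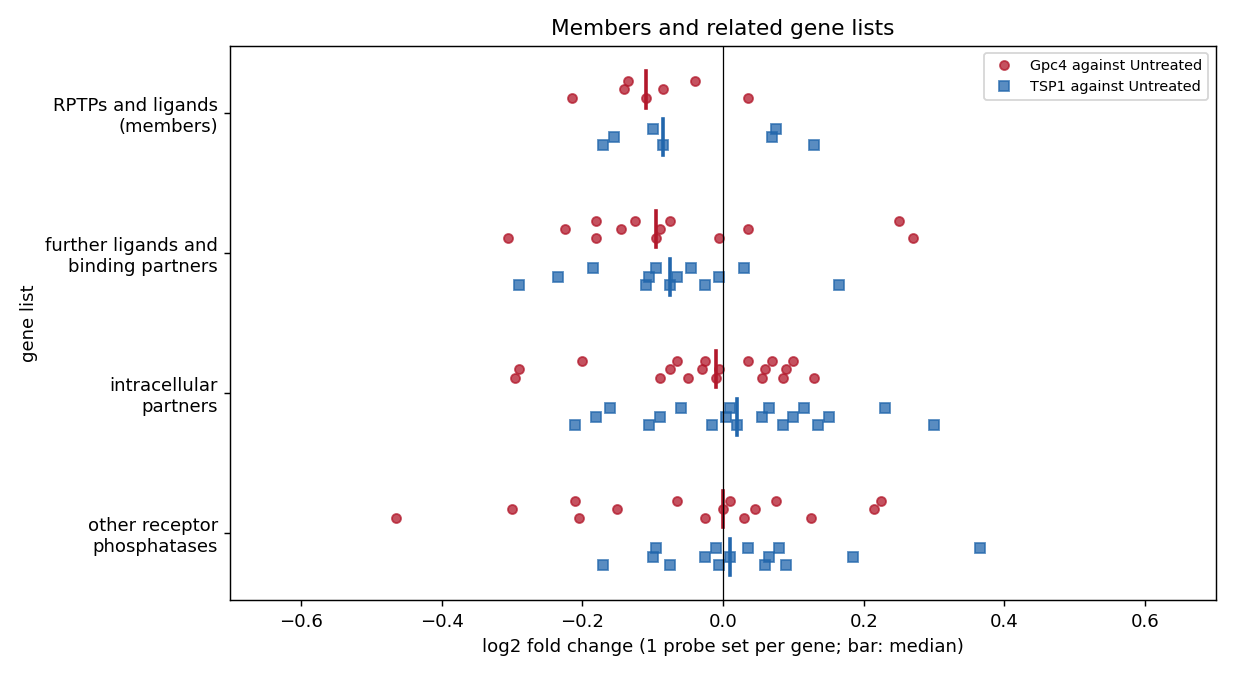
Log2 fold change of each measured gene (1 probe set per gene) for Gpc4 against Untreated (red circles) and TSP1 against Untreated (blue squares), with the median of each list as a bar. The 7 members have medians of -0.11 and -0.085, and the further ligands, binding partners and related genes -0.095 and -0.075. The intracellular partners have -0.01 and 0.02, and the other receptor phosphatases 0 and 0.01. The lowest point is Ptprr with Gpc4, at -0.465.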

How the data were processed

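The 6 arrays of RGC mRNA were grouped by their labels into Gpc4, TSP1 and Untreated, with 2 arrays in each. Per the labels and methods, signals were made in Affymetrix Expression Console, whose version is not given in the sources used here. The authors deposited log2 RMA values, normalized between arrays and rounded to 2 decimals, and no further normalization or filter was applied. The genome build is not given in the sources used here, so no coordinates are printed. Symbols came from the platform annotation, in which 20826 probe sets have 1 symbol, 436 have several and 9780 have none. All 7 measured members had the same gene identifier in NCBI RefSeq (assembly GRCr8).

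Groups were compared with the limma package, version 3.58.1, in R 4.3.3 (linear fit and empirical Bayes, 3 residual degrees of freedom, Benjamini-Hochberg adjustment over 31042 probe sets), and the script was tested on simulated data. Every member probe set is named. From each list the genes at either end of the fold changes that averaged at least 6 on the log2 scale are named as far as the text uses them, with the 3 probe sets most like the member of widest span. The members, lists and tests were chosen with earlier results of these data known.

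The methods state 2 separate cultures. Arrays of the same number deviated together from their groups' means, with correlations over all probe sets of 0.37 (Gpc4 and TSP1), 0.29 (Gpc4 and Untreated) and 0.35 (TSP1 and Untreated). The replicate numbers were therefore taken to pair the arrays, but only in the replicate block and in the comparison of replicates. The main fit held the group alone, so its p-values, its intervals and the differences needed to pass ignore this pairing. The p-values of the main fit rest on the spread within all 3 groups, moderated by that of all probe sets. Precision is limited by having 2 arrays a group. The alternatives were the replicate block, quantile normalization, median centring, a filter at a mean of 6, a trended variance, a fit of the 2 compared groups only, the methods' t-test, the average of a gene's probe sets, and leaving out each array. The t-test is stated for other assays of the study and not for the arrays. Plots were made in Python 3.11.15 with matplotlib 3.10.9. The immunostaining, qRT-PCR and mouse experiments were not analysed here.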

Additional observations from a re-analysis of the deposited data

How the results depend on the processing

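Over the limma fits run, no member passed in any comparison. All 18 member probe sets were tested with the replicate block, quantile normalization, median centring, a trended variance, the 2 compared groups only, and without each array in turn. With a filter at a mean of 6 only 11 were tested, and with the average of a gene's probe sets the 7 genes. Without 1 array of a group the lone array was assumed to vary like the other groups. No call changed direction, but the sign of a difference turned in at least 1 setting for 10 of 18 member probe sets with Gpc4, 10 with TSP1 and 8 between them, so the sign of a small difference is not fixed by these arrays.

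The methods' t-test at an unadjusted threshold, which the study states for other assays and not for the arrays, was the only setting that called members. It called 2 of 18 with Gpc4 (Ptprf 1368036_at and Slitrk1 1391019_at), 1 with TSP1 (Ptprs 1370599_a_at) and 2 for Gpc4 against TSP1 (Ptprd 1374591_at and Ptprf 1368035_a_at). Over all 31042 probe sets the counts were 1704, 1280 and 1433. Calls at an unadjusted threshold also arise without a difference, so these few are no result about the members. After Benjamini-Hochberg the t-test called 0 of all in each comparison. Probe sets with no spread within both groups, which occur because values were rounded, got no t-test, a choice made after seeing the output. Counts over all probe sets moved more than those of the members. For Gpc4 against Untreated 26 became 64 with the replicate block, 49 with a trended variance, 13 with the 2 groups alone, and 2 to 13 without 1 array. For TSP1 against Untreated 0 became 4 with the replicate block and 0 to 1 without 1 array, the 1 being without Untreated replicate 1. For Gpc4 against TSP1 19 became 80 with the replicate block, 39 with a trended variance, 31 at a mean of at least 6, and 2 to 13 without 1 array. Dim signal limits Il1rap and Slitrk3, whose probe sets lay near or below the array medians.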
